A study of Mus musculus with 8 samples.

Results

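The regions described here were 7265 CEBPA peaks that were called in the empty-vector line and overlapped no called peak of the other 3 peak lists. They were chosen by the peak calls themselves. A peak of the empty-vector CEBPA list on chromosomes 1 to 19 or X was taken when it overlapped, by at least 1 bp, no CEBPA peak of the PuER line and no PU.1 peak of either line. They made up 27.8% of the 26117 empty-vector CEBPA peaks on these chromosomes (95% interval 27.3 to 28.4) and 90.6% of the 8019 empty-vector CEBPA peaks that were missing from the PuER list. They are called vector-only peaks below. The comparison sets were the 13504 CEBPA peaks that were also called in the PuER line and lay away from PU.1 (retained peaks), 1408 CEBPA peaks called only in the PuER line and away from PU.1 (PuER-only peaks), and 754 vector-only CEBPA peaks that did overlap a PU.1 peak. The remaining 4594 empty-vector CEBPA peaks were retained and overlapped PU.1.

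Both lines were clones of X18.1.1, a murine AML cell line that arose after irradiation and carries a deleted and a mutated Pu.1 allele. The empty-vector line received the MSCV-puro retrovirus without an insert and so had mutant PU.1 only. The PuER line received the same retrovirus with PU.1 fused to an oestrogen receptor domain, which 4-hydroxytamoxifen (OHT) activates. Each line was harvested 2 h after OHT was added at 100 nM. There was 1 ChIP-Seq library for each antibody and line, so a difference between the lines cannot be told apart from a difference between a pair of clones, immunoprecipitations or sequencing depths. The lists held positions only, without heights or read counts, and the identity of the cells could not be checked against marker genes from them. Intervals on shares are exact (Clopper-Pearson) and those on differences are Newcombe intervals. Both are at the 95% level and cover counting error only, and no p-value was computed.

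CEBPA is a basic leucine zipper (bZIP) factor that directs the formation of granulocytes and monocytes. It binds DNA as a dimer, each partner contacting an arm of a short inverted repeat, and it can pair with other CEBP proteins or with ATF family members. PU.1 is an ETS factor that works with CEBPA at many myeloid enhancers, and RUNX1 is a further partner of both in blood progenitors.

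The vector-only peaks held the CEBP site in many forms. The core searched was TTGCNNAA on either strand, within the central 80 bp of each 400-bp peak. The sequences below, from the RefSeq GRCm38 (mm10) forward strand, are the central 80 bp of the 8 vector-only peaks at named genes, 1 per gene, whose site lay closest to the peak centre among windows clear of exons, with each match, on either strand, in capitals. They show that the site at the centre ranged from the TTGCACAA form at Cdkn2c and Runx1 to forms such as TTGCAGAA at Cdk6, and that Cybb and Runx1 each carried 2 matches.
Cdk6, intron, chr5:3389971-3390050: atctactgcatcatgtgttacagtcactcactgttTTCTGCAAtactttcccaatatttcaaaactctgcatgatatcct
Cdkn2c, between genes, chr4:109637514-109637593: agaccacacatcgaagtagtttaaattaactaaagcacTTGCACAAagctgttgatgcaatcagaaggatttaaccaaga
Bcl11a, intron, chr11:24121754-24121833: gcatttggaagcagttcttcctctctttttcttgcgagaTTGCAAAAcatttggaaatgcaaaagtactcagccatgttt
Cybb, intron, chrX:9450115-9450194: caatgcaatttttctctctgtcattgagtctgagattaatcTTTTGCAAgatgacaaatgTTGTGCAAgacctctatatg
Runx1, intron, chr16:92761162-92761241: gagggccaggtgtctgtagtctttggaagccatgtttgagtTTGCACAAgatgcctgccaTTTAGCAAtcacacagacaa
Ngp, between genes, chr9:110415389-110415468: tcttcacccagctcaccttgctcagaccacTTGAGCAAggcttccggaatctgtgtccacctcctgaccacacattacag
Erg, intron, chr16:95377397-95377476: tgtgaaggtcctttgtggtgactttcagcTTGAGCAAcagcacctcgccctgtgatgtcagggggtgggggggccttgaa
Maf, promoter, chr8:115707994-115708073: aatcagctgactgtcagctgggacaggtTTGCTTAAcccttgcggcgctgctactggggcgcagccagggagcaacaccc

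At least 1 such site was present in 2185 vector-only peaks, or 30.1% (29.0 to 31.1), against 3.25% of flanking windows of the same length, 2000 bp upstream and downstream. The share was 41.0% in retained peaks (40.2 to 41.8), 36.6% in PuER-only peaks (34.1 to 39.2) and 10.7% in vector-only peaks at PU.1 (8.62 to 13.2). The vector-only share was thus 10.9 percentage points below that of retained peaks (difference −10.9, −12.2 to −9.56) and below that of PuER-only peaks (difference −6.50, −9.26 to −3.81). Sites lay near the peak centre in the vector-only peaks too. There were 22.0 sites per 100 peaks in the central 40 bp and 2.05 per 40 bp beyond 120 bp from the centre, against 33.2 and 1.90 in retained peaks. Among the 46.7% of vector-only peaks with a site anywhere in the 400 bp, the nearest lay at a median of 23 bp from the centre, against 16 bp in retained peaks and 20 bp in PuER-only peaks.

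**Figure D1:**
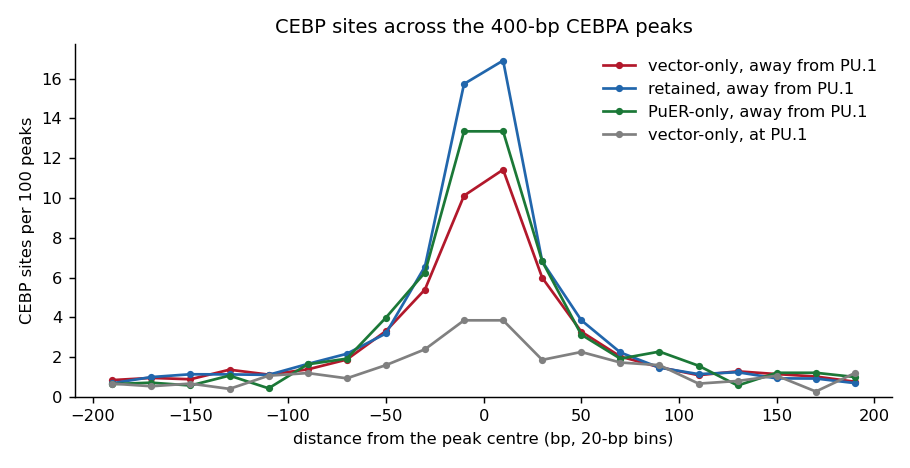
CEBP sites (matches to the 8-base core on either strand) per 100 peaks in 20-bp bins across the 400-bp peaks, for vector-only, retained and PuER-only peaks away from PU.1 and for vector-only peaks at PU.1. The vector-only curve reached 11.4 sites per 100 peaks beside the centre, below the 16.9 of retained peaks, and the curves met towards the edges.

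Of all 20769 empty-vector CEBPA peaks away from PU.1, 34.98% were vector-only (34.3 to 35.6), and this share varied with the site. It was 38.9% in peaks without a CEBP site (38.1 to 39.8), 29.0% in peaks with 1 site (28.0 to 30.1) and 18% in the 500 peaks with 2 or more (90 peaks, 14.7 to 21.7). The intervals of these 3 groups did not overlap. It varied with the form of the site as well. In peaks with the perfect inverted repeat TTGCGCAA the vector-only share was 19.4% (107 of 552, 16.2 to 22.9), and with TTGCACAA, the form most often found, it was 24.3% (491 of 2024, 22.4 to 26.2). Towards the other end of the range it was 32.3% with TTGCAAAA (28.9 to 35.8), 34.4% with TTGCTTAA (30.2 to 38.7) and 36.2% with TTGCAGAA (27.9 to 45.04), which were close to the 34.98% of all peaks.

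The same contrast appeared when the sites rather than the peaks were counted. TTGCACAA made up 21.7% of the 2276 sites in vector-only peaks and 26.2% of the 5959 sites in retained peaks (difference −4.59, −6.58 to −2.53). TTGCGCAA made up 4.70% and 7.47% (difference −2.77, −3.82 to −1.62). TTGCAAAA, at 10.4% against 8.42%, and TTGCTTAA, at 7.51% against 5.52%, took larger parts of the vector-only sites, each by 1.99 percentage points (0.593 to 3.48 and 0.810 to 3.27). More than 1 site was found in 90 vector-only peaks (1.24%) and in 410 retained peaks (3.04%).

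**Figure D2:**
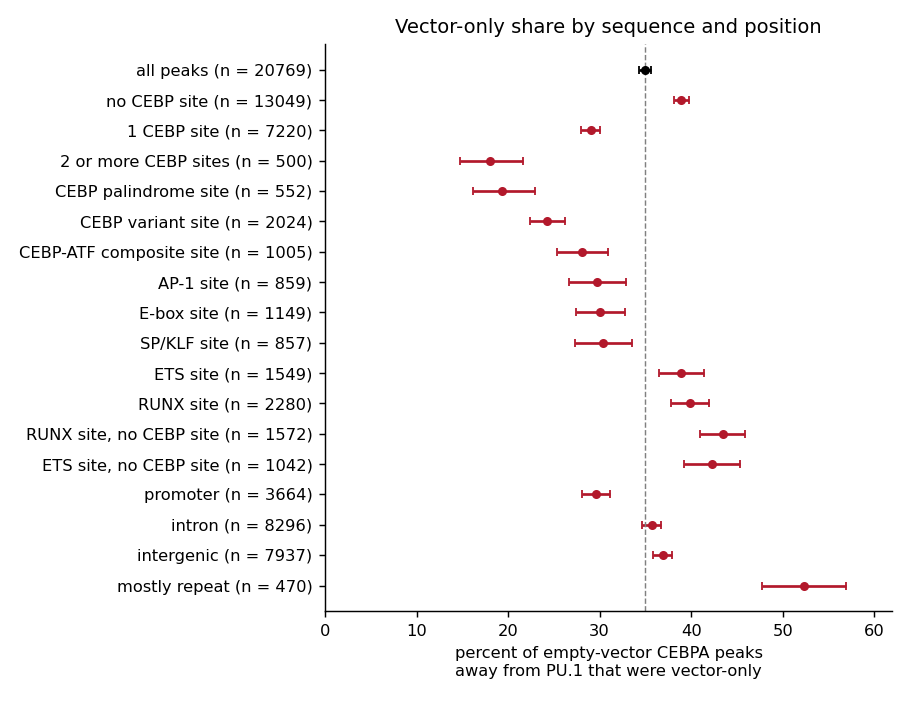
Percent of empty-vector CEBPA peaks away from PU.1 that were vector-only, for peaks with each sequence feature in the central 80 bp or at each position, with exact 95% intervals (counting error only). The dashed line marks the 34.98% of all peaks. Peaks with 2 or more CEBP sites and peaks with the perfect inverted repeat lay furthest below it, and mostly repetitive peaks furthest above.

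The 5080 vector-only peaks without the TTGCNNAA core still held related words. When all 8-base words were ranked by their difference from the flanking windows, the leading ones in these peaks were TTGTGAAA in 5.28% (0.354% in flanks), TTGCATCA in 5.02% (0.197%), TGTTGCAA in 4.98% (0.167%) and TTACACAA in 4.80% (0.335%). TTGCATCA is the composite at which a CEBP protein can pair with an ATF protein, and the others differ from the core by a changed arm. A looser core, TTNCNNAA, was present in 33.0% of these 5080 peaks and in 16.6% of their flanks. With the 4 words added to the core, 43.9% of vector-only peaks (42.8 to 45.1), 56.8% of retained peaks (56.0 to 57.6) and 17.0% of vector-only peaks at PU.1 (14.4 to 19.9) had a match, against 4.30% of the vector-only flanks. These words were picked from the ranking, so the added matches are a description. The following vector-only peaks, chosen after their sequences were seen, had no core match in the central 80 bp, though some had one further out. Each had a word of this kind close to the centre, shown in capitals as it reads on the forward strand. TGATGCAA, TTGCAACA and TTGTGTAA are the reverse complements of TTGCATCA, TGTTGCAA and TTACACAA.
Cebpa, between genes, chr7:35127963-35128042: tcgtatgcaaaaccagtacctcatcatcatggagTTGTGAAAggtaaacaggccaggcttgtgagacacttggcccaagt
Cdk6, intron, chr5:3479500-3479579: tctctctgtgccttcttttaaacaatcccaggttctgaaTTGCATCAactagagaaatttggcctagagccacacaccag
Bcl11a, intron, chr11:24129787-24129866: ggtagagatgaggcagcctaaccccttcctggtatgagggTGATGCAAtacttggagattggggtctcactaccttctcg
Irf8, intron, chr8:120744004-120744083: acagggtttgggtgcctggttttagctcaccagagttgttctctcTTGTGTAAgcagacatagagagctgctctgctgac
Pparg, intron, chr6:115464905-115464984: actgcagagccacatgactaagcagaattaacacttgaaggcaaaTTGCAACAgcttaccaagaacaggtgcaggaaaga

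All 10 leading words over the whole set of vector-only peaks were CEBP-like. TTGCACAA came first, in 6.76% of peaks (0.248% of flanks), and it also led in retained peaks (11.4%) and PuER-only peaks (10.4%). TGTTGCAA came next in vector-only peaks, at 4.10%, and was present in 5.21% of retained and 3.48% of PuER-only peaks. TTGTGAAA was present in 4.18% and 4.67% of vector-only and retained peaks (difference −0.481, −1.05 to 0.113), and TTACACAA in 3.62% and 4.07% (difference −0.445, −0.979 to 0.111). For these 2 words and for TTGCAAAA (difference −0.416, −0.921 to 0.112) the interval of the difference included 0. It did not for the other leading words, among them TTGCACAA (−4.59, −5.37 to −3.80), TGTTGCAA (−1.10, −1.68 to −0.502) and TTGCATCA (−1.47, −2.05 to −0.877).

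Sites of other blood factors were less common than CEBP sites and moved by a few percentage points. The RUNX site TGTGGT, bound by RUNX1 and its relatives, was present in 12.5% of vector-only peaks (11.8 to 13.3), 10.2% of retained peaks and 9.02% of PuER-only peaks, against 6.23% of flanks. The difference from retained peaks was 2.36 percentage points (1.45 to 3.29) and that from PuER-only peaks 3.49 (1.72 to 5.08). It was similar away from promoters (13.3% against 11.2%, difference 2.15, 1.13 to 3.19) and at promoters (8.03% against 5.93%, difference 2.10, 0.327 to 4.06). RUNX sites were denser near the centre, with 7.28 per 100 vector-only peaks in the central 40 bp and 3.53 per 40 bp near the edges, and with 5.94 and 3.05 in retained peaks. Within the vector-only peaks they were more frequent without a CEBP core (13.4%) than with one (10.3%, difference with minus without −3.10, −4.65 to −1.48). Among peaks with a RUNX site and no CEBP core, 43.4% were vector-only (41.0 to 45.9), against 38.9% of all peaks without the core. With both present the share was 31.9% (28.5 to 35.5), against 28.3% of all peaks with the core (27.3 to 29.3). The vector-only peak shown here, which lay 26760 bp upstream of Fos, was the one at a named gene whose RUNX site, ACCACA on this strand, was closest to the centre.
Fos, between genes, chr12:85447090-85447169: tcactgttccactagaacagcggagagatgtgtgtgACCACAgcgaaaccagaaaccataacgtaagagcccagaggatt

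The ETS core GGAAGT, to which PU.1 and its relatives bind, was present in 8.30% of vector-only peaks (7.68 to 8.96), 7.01% of retained peaks and 4.93% of flanks, and in 22.5% of vector-only peaks that did lie at PU.1 (19.6 to 25.7). The difference from retained peaks was 1.29 percentage points (0.539 to 2.07). A longer ETS-type word, ACAGGAAG, was eighth in the ranking of vector-only peaks without a CEBP core, at 3.27% against 0.797% of flanks. Of the 355 peaks with this word and no CEBP core, 46.8% were vector-only (41.5 to 52.1), against 38.9% of all peaks without the core. This word was singled out after its values were seen.

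The AP-1 site TGANTCA, bound by FOS and JUN proteins, was present in 3.51% of vector-only peaks, 4.47% of retained peaks (difference −0.963, −1.50 to −0.403) and 7.10% of PuER-only peaks (difference −3.59, −5.11 to −2.28), against 2.17% of flanks. Peaks with both an AP-1 site and a CEBP core were vector-only in 20.4% of cases (55 of 269, 15.8 to 25.8), against 28.3% of all peaks with the core, and those with an AP-1 site and no core in 33.9% (30.1 to 37.9), against 38.9% of all peaks without it. The CEBP-ATF composite was present in 3.88% of vector-only and 5.35% of retained peaks (difference −1.47, −2.05 to −0.877). The E-box CAGCTG was lower by 1.21 percentage points (difference −1.21, −1.83 to −0.562), at 4.75% against 5.95%, and the SP/KLF site GGGCGG was at 3.58% against 4.42% (difference −0.842, −1.38 to −0.280). When split by place, the SP/KLF difference had intervals that included 0. It was 14.2% against 15.1% at promoters (difference −0.910, −3.33 to 1.67) and 1.71% against 1.89% elsewhere (difference −0.180, −0.582 to 0.248). An IRF site, GAAANNGAA, was at 3.01% against 2.40% (difference 0.615, 0.157 to 1.10), with 2.66% in flanks. A STAT site, TTCNNNGAA, was at 2.53% against 2.09% (difference 0.444, 0.0217 to 0.894), with 2.44% in the vector-only flanks. The NF-Y site CCAATCA was at 0.853% against 1.27% (difference −0.420, −0.697 to −0.124). GATA sites (AGATAA) were rarer in vector-only peaks, at 2.96%, than in their flanks, at 4.72%, and intervals of the difference from retained peaks included 0 for GATA, MEIS (TGACAG), HOX (TGATTNAT), CTCF (CCANNAGGG), PAR bZIP (TTACNTAA), NRF1 (GCGCATGC) and CRE (TGACGTCA). TTGCGCAA and TTGCACAA are forms of the CEBP core, and none of the other words contains it.

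Most vector-only peaks lay far from a gene start. By the GENCODE M21 protein-coding annotation, 14.9% were at a promoter, with the centre within 1000 bp of a transcription start (14.1 to 15.8), 1.42% in a coding exon, 2.62% in a UTR or other exon, 40.8% in an intron and 40.3% between genes. Promoters took 19.1% of retained peaks (difference −4.18, −5.23 to −3.12), 20.4% of PuER-only peaks and 22.9% of vector-only peaks at PU.1. The median distance to a start was 11835 bp, against 10076 bp for retained peaks. The CEBP core was less frequent than in retained peaks both at promoters and elsewhere. It was present in 19.4% of the 1084 vector-only promoter peaks against 33.3% at retained promoters (difference −14.0, −16.9 to −10.9), and in 32.0% against 42.8% of distal peaks (difference −10.8, −12.3 to −9.35). At promoters with the core, 19.6% of peaks were vector-only (17.3 to 22.1), and at promoters without it, 33.7% (31.9 to 35.5). Against PuER-only peaks, the difference was −8.46 at distal positions (−11.6 to −5.39) and −2.23 at promoters, where its interval included 0 (−7.82 to 2.78).

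The base composition moved with these results, and its part in them was not tested. Vector-only peaks had a mean GC content of 45.8% (SD 7.41, n = 7265 peaks), against 47.3% (SD 8.06) in retained peaks and 44.2% in flanks, and a mean of 6.42 CpG dinucleotides per peak against 8.06. The vector-only share of peaks fell from 38.9% at a GC content under 40% (37.3 to 40.5) to 24.7% at 60% or more (22.5 to 27.1). At least 50% of the bases were annotated repeats in 246 vector-only peaks, or 3.39% (2.98 to 3.83), against 1.66% of retained peaks and 16.9% of flanks. Of all 470 such repetitive peaks, 52.3% were vector-only (47.7 to 56.9).

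Although none of them overlapped PU.1, vector-only peaks differed from retained peaks in their distance to PU.1 peaks of the PuER line. For PU.1 peaks of the empty-vector line the shares within 10 kb were close, at 16.2% of vector-only (15.4 to 17.1) and 16.7% of retained peaks (16.1 to 17.4). The median distance of vector-only peaks to the nearest PU.1 peak of the PuER line was 24855 bp, against 19710 bp for retained peaks. Such a peak lay within 10 kb of 30.1% (29.1 to 31.2) against 34.3% (33.5 to 35.1). The vector-only share was 29.3% in peaks with a PU.1 peak of the PuER line within 1000 bp (26.4 to 32.3), 31.2% at 1000 to 5000 bp, 33.5% at 5000 to 20000 bp, 36.4% at 20000 to 50000 bp and 38.4% beyond 50000 bp (37.1 to 39.6). For distance to a retained CEBPA peak the interval of the difference included 0. A retained CEBPA peak lay within 10 kb of 40.6% of vector-only peaks (39.4 to 41.7), and another retained peak lay that close to 41.5% of retained peaks (difference −0.956, −2.35 to 0.449). For PuER-only peaks the share was 33.2% (difference 7.31, 4.57 to 9.98).

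**Figure D3:**
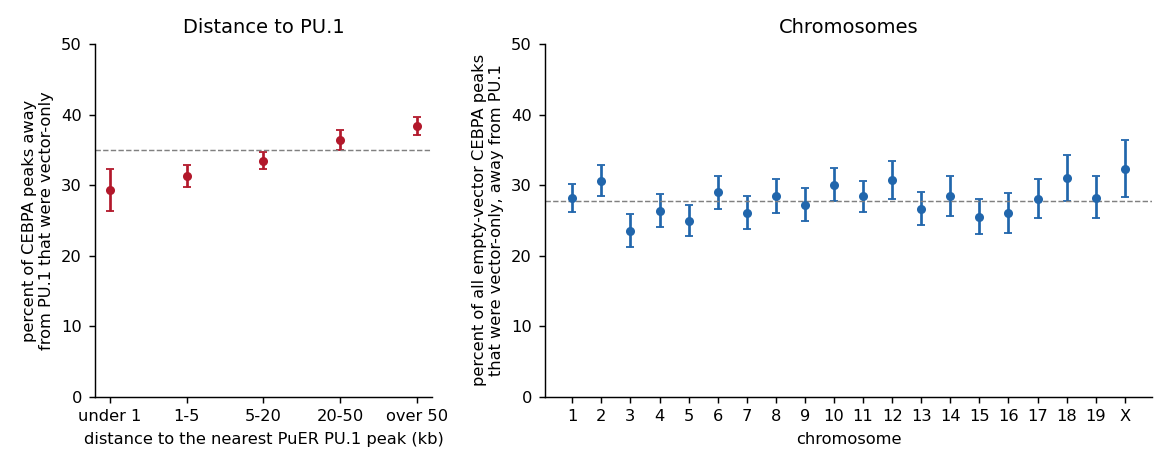
Left, percent of empty-vector CEBPA peaks away from PU.1 that were vector-only, by distance to the nearest PU.1 peak of the PuER line. Right, percent of all empty-vector CEBPA peaks on each chromosome that were vector-only and away from PU.1. Bars are exact 95% intervals and dashed lines the 34.98% and 27.8% over all peaks. The left share rose from 29.3% to 38.4%, and chromosomes ranged from 23.5% to 32.3%.

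Vector-only peaks were spread over the genome. They took the largest part of the CEBPA peaks on chromosome X (32.3%, 174 of 539, 28.3 to 36.4) and the smallest on chromosome 3 (23.5%, 311 of 1324, 21.2 to 25.9). Over 212 windows of 10 Mb with at least 50 CEBPA peaks, the share had a median of 27.6% and a range of 14.8% to 44.6%. When CEBPA peaks were read in order along each chromosome, 3681 vector-only peaks stood alone, 1020 runs held 2 and 15 runs held 6 or more. The 3 longest runs are described here, the shorter span coming first where runs held the same number of peaks. A run of 8 spanned chr15:85970562-86151028 at Celsr1, Gramd4 and Cerk, with 3 PU.1 peaks of the PuER line between them. Another run of 8 spanned chr13:60051035-60369861 around Gas1, a growth arrest gene, and a run of 7 spanned chr2:172448320-172668194 around Rtf2, Fam209 and Tfap2c. Neither of these last runs enclosed a peak of any other list. Longer spans with 7 vector-only peaks, on chromosomes 9 and 11, did enclose peaks of other lists.

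Peaks were assigned to the protein-coding genes whose promoter or body held them, or else to the flanking genes within 50 kb. At least 1 vector-only peak was assigned to 4923 of 21755 genes (22.6%), whereas 39.6% of genes had a retained CEBPA peak. Of the 4923 genes, 3405 (69.2%) also had a retained CEBPA peak and 1518 (30.8%) had none. Genes with a vector-only peak were longer, with a median of 37116 bp against 13962 bp for the rest, and 55.05% of them had a PU.1 peak found only in the PuER line, against 30.8% of all genes. A single vector-only peak was assigned to 3431 genes, and 1006 peaks (13.8%) were assigned to none. The number per gene was highest, at 31, for Gm20388, a model of 4434882 bp on chromosome 8 that spans many other genes. It was 10 for Pde4d, a cyclic AMP phosphodiesterase, 9 each for Lypd6b, Atxn1, Jazf1, Astn2 and Zfp608, and 8 for 7 genes, of which the 3 with the fewest retained peaks are named, Calcrl and Ednra, receptors for vasoactive peptides, and Gng12, a G protein subunit. Retained peaks outnumbered vector-only peaks at Gm20388 (79), Pde4d (27), Zfp608 (15), Astn2 (14), Gng12 (12) and Jazf1 (10), but not at Calcrl (3), Lypd6b (7), Ednra (7) or Atxn1 (8). Ednra had no PU.1 peak found only in the PuER line, and none of its 8 vector-only peaks had a CEBP core in the central 80 bp. None of the 9 at Jazf1 had a core there either, and at Atxn1, Zfp608 and Calcrl only 1 vector-only peak of each gene did.

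Distances below are to the nearest annotated transcript start of the gene named, which can be an alternative start within it. For each list, the shares to read it against are the 22.6% of all genes with a vector-only peak, the 39.6% with a retained peak and the 27.4% of CEBPA peaks assigned to any protein-coding gene that were vector-only (26.8 to 28.0). The CEBP list held 7 genes, among them Cebpz, which shares the name but not the bZIP domain. Of these 7, 3 had a vector-only peak (Cebpa, Cebpz and Cebpg, 42.9%), and all 7 had a retained CEBPA peak. The vector-only part of their assigned CEBPA peaks was 17.4% (4 of 23, 4.95 to 38.8), with the 27.4% of all genes inside the interval. Cebpa had 2 vector-only peaks and 6 retained peaks. At 2145 bp downstream of its start, chr7:35121248-35121647 (not shown because it is exonic), a vector-only peak in the last part of the transcribed region held TTGCACAA at its centre. The other, 8700 bp downstream, is the TTGTGAAA peak shown above, and it lay 931 bp from a retained CEBPA peak and 953 bp from a PU.1 peak of the PuER line. At Cebpg and Cebpz the vector-only peak was at the promoter, 528 bp downstream and 48 bp upstream of the start, and neither held the core in its central 80 bp.

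Other bZIP genes, which encode possible partners or competitors of CEBPA, had a vector-only peak at 13 of 24 (54.2%, against 22.6% of all genes). Fos had 2, both over 20 kb upstream and without a CEBP core anywhere in the 400 bp. Atf5 and Maf had vector-only peaks at the promoter, 188 bp and 240 bp upstream, and that of Maf held the core. Batf had 1 in an intron with TTGCGTAA, and those near Atf3 and Nfe2 held no core. Of all empty-vector CEBPA peaks assigned to this list, 17.9% were vector-only and away from PU.1 (14 of 78, 10.2 to 28.3), and the interval included the 27.4% of all genes.

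Among granule and secreted neutrophil genes, products of the lineage that CEBPA promotes, 9 of 20 had a vector-only peak (45%, against 22.6% of all genes) and 16 had a retained peak (80%, against 39.6%). S100a9, a calcium-binding protein abundant in neutrophils, had 2, at 6728 bp upstream with TTGCCTAA and at 17637 bp downstream with TTGCACAA. Single peaks with a core were found in an intron of Mmp9, a secreted gelatinase, in an intron of Cybb, a subunit of the phagocyte oxidase, with 2 sites, and 4318 bp upstream of Ngp. The peaks near Ctsg, a granule protease, and Hp, haptoglobin, lacked the core in the central 80 bp. The vector-only part of the CEBPA peaks assigned to the list was 19.6% (9.36 to 33.9), an interval that included 27.4%.

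Genes of myeloid cytokine receptors had a vector-only peak at 5 of 20 (25%, against 22.6% of all genes), the granulocyte-macrophage receptor subunit Csf2ra having 2. Those at Il17ra and Il1r2 held a core, and those at Csf2ra and Il3ra did not in the central 80 bp. In this list 11.5% of assigned CEBPA peaks were vector-only (6 of 52, 4.35 to 23.4), and the interval lay below the 27.4% of all genes. Monocyte and macrophage genes, which PU.1 is known to activate, had a vector-only peak at 8 of 28 (28.6%, against 22.6% of all genes) and a PU.1 peak found only in the PuER line at 23 of 28, against 30.8% of all genes. Ccl6, a chemokine, had 3 vector-only peaks, none with a core in the central 80 bp, and that 551 bp upstream of its start lay 537 bp from a PU.1 peak of the PuER line. Egr1 and Cx3cr1 had 2 each. Those of Cx3cr1 lay 51164 and 66122 bp downstream of the nearest start, within a long gene model that spans chr9:119901616-120069879. Irf8, a regulator of monocyte fate, had 1 with the TTACACAA word, shown above on the other strand, and Fcgr3 and Fcgr1, which encode antibody receptors, had 1 each without a core. The vector-only part was 17.4% (9.32 to 28.4), an interval that included 27.4%.

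Stem and progenitor transcription factor genes had a vector-only peak at 17 of 30 (56.7%, against 22.6% of all genes). Together they had 37, or 24.8% of their assigned CEBPA peaks (18.1 to 32.6), near the 27.4% of all genes. Their median length was 34708 bp, longer than that of the other lists. Runx1, Erg and Etv6 had 4 each, and Gfi1, Bcl11a and Fli1 3 each. The 4 vector-only peaks of Runx1 stood among 16 retained CEBPA peaks, and only that with 2 sites, shown above, had a core in the central 80 bp. At Erg 2 of the 4 and at Etv6 3 of the 4 had one. Spi1, the gene for PU.1 and named here after its values were seen, had 2 vector-only and 4 retained CEBPA peaks.

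Liver and fat genes known as CEBP targets had a vector-only peak at 5 of 20 (25%, near the 22.6% of all genes), and 7 of the 11 peaks were at Pparg, a nuclear receptor of fat cells and macrophages. All 7 lay in introns of Pparg, 2 of them with a core in the central 80 bp, and 4 stood between 91.8 and 104.0 kb from the gene start. G6pc, Scd1, Lpl and Lep had 1 each. The vector-only part was 28.9% (15.4 to 45.9), near the 27.4% of all genes. Among cell cycle and growth genes, 8 of 21 had a vector-only peak (38.1%, against 22.6% of all genes) and 18.99% of assigned CEBPA peaks were vector-only (11.0 to 29.4, which included 27.4%). Cdk6, a cyclin-dependent kinase that drives entry into S phase, had 5, all in introns, beside 14 retained peaks. Of these 5, 2 held a core in the central 80 bp. Mdm2, which restrains p53, had 2, with 1 at the promoter, 32 bp from an annotated start inside the gene, and Bcl2 and Ccnd3 had a promoter peak each, none with a core in the central 80 bp. The cell cycle inhibitors Cdkn1a and Cdkn2c had 2 each, and 1 of each pair held a core in the central 80 bp.

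**Figure D4:**
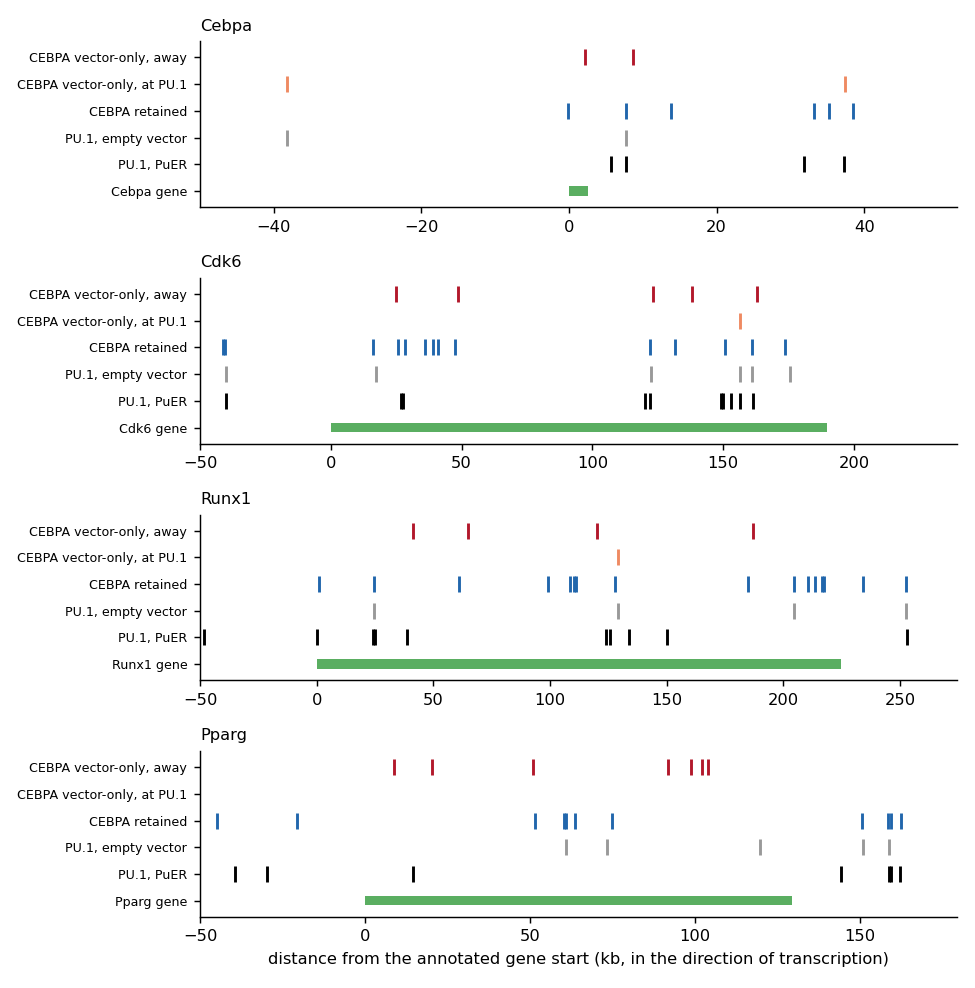
Peaks of the 4 lists around Cebpa, Cdk6, Runx1 and Pparg, by distance in kb from the annotated gene start in the direction of transcription. Each tick is a 400-bp peak at its centre and the green bar is the gene. Each locus held both vector-only and retained CEBPA peaks, with 2 vector-only peaks at Cebpa, 5 at Cdk6, 4 at Runx1 and 7 at Pparg. At Pparg, 1 vector-only peak lay 840 bp from a retained peak and the others 16921 to 31474 bp from one.

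**Figure D5:**
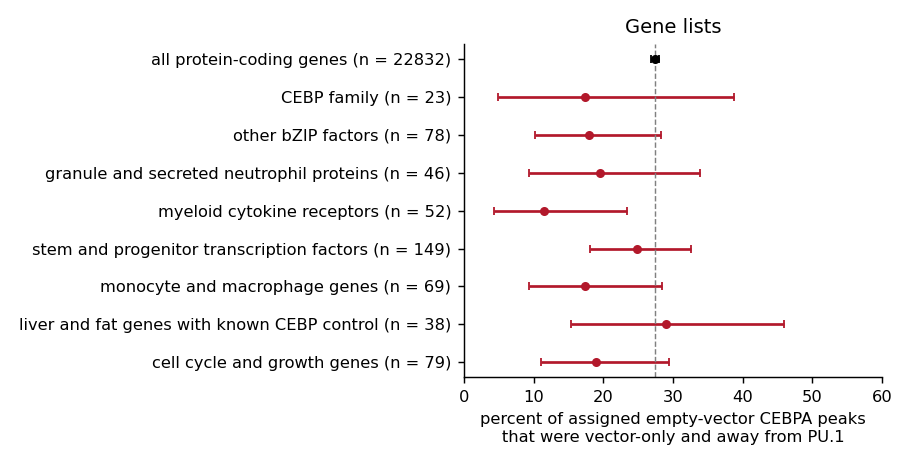
Percent of the empty-vector CEBPA peaks assigned to each gene list that were vector-only and away from PU.1, with exact 95% intervals (counting error only) and the 27.4% of all protein-coding genes as a dashed line. The list values ranged from 11.5% to 28.9%, and only the interval of the cytokine receptors lay wholly below the line.

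Few peaks lay close to the limit that set vector-only peaks apart. A gap of under 100 bp separated 47 vector-only peaks from a CEBPA peak of the PuER line, and 21.3% of these held a CEBP core. An overlap of under 100 bp made 35 peaks retained, and 25.7% of these held one. The core was present in 41.3% of the 13279 retained peaks that overlapped by 300 bp or more, and in 20.3% of the 138 with an overlap of at least 200 but under 300 bp. A gap of under 100 bp to a PU.1 peak was found for 48 vector-only peaks in the PuER line and 26 in the empty-vector line.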

How the data were processed

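The authors mapped ChIP-Seq reads to mm10, and the submitters' processing notes name Bowtie2 2.0.6 and MACS2 2.0.10. They deposited 1 list of peak positions for each of 4 libraries: CEBPA in the empty-vector line (26119 peaks) and the PuER line (20583), and PU.1 in the empty-vector line (5288) and the PuER line (15683). All peaks were 400 bp wide. The calling threshold and the read depth were not given in the sources used here. The other 4 of the 8 samples (H3K27Ac and IgG) were not analysed here.

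Peaks on chromosomes 1 to 19 and X were compared by an overlap of at least 1 bp. Sequences came from RefSeq GRCm38.p6 and gene models from GENCODE M21. Motifs were exact matches on both strands in the central 80 bp, with windows 2000 bp to either side as background. Genes took peaks within 1000 bp of a transcription start, else within the gene, else flanking within 50 kb. The members and gene lists were chosen with earlier results of these data known. Genes named were up to 6 per list with the most vector-only peaks, the 10 genes with the most of all, the 10 leading 8-base words, the extreme chromosomes and the 3 longest runs. A gene that this rule names is not reported here. Retained peaks in neighbour and gene counts included those at PU.1, as did the CEBPA peaks assigned to genes.

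The overlap, motif and placement steps were tested on made-up data with known answers, and the real classes matched bedtools 2.31.1. Python 3.11.15, numpy 2.4.6, scipy 1.17.1, statsmodels 0.14.6, pysam 0.24.0, samtools 1.23.1 and matplotlib 3.10.9 were used. Alternatives were other overlap rules, motif forms, window lengths, promoter limits and assignment distances.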

Additional observations from a re-analysis of the deposited data

How the results depend on the processing

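The number of vector-only peaks stayed within 6181 and 7798 under the other overlap rules. The percent with a CEBP site was 40.6 in the central 200 bp, 46.7 in the whole peak, 8.22 for TTGCGCAA or TTGCACAA only and 53.2 for TTNCNNAA. The difference from retained peaks was −6.42 and −8.16 percentage points with those 2 motif choices, and that from PuER-only peaks −3.71 and −2.52, of which the last had an interval that included 0 (−5.34 to 0.324). The promoter share was 10.05% within 500 bp of a start and 23.8% within 2500 bp. A retained CEBPA peak lay within 5 kb of 26.85% and within 50 kb of 76.8% of vector-only peaks, and within 10 kb of 33.5% when no peak of the other 3 lists was allowed within 1000 bp. The wider limits and windows and the looser motif raise a share, and the stricter ones lower it, by construction. The cause of the smaller differences was not tested. Mean GC content was 46.7% in the central 80 bp and 46.6% in the central 200 bp, against 45.8% in the whole peak. These lay within the SD over peaks (7.41), which is a spread over peaks and not an interval of the mean. The other alternatives gave values inside the stated intervals or, for counts, within 1.5 times, and no difference changed sign. No paired analysis was possible because each antibody and line had 1 library. For the same reason no replicate could be left out. Peak heights and depth were not available to this work, so a vector-only peak may have been present in the PuER line below its calling threshold, which was not tested.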

Other observations

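The empty-vector CEBPA list held 2 peaks on the mitochondrial chromosome, at positions 2618 to 3017 and 15900 to 16299, and the other lists held none. They were left out of every count above.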
